A study of Cavia porcellus with 12 samples.

Results

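The miR-99 and miR-100 family was followed here through its 3 human-named precursors, hsa-mir-99a, hsa-mir-99b and hsa-mir-100, in small RNA sequencing of guinea pig heart cells. Its members were all entries of the 3 deposited tables whose name ends in one of these precursors, 34 of the 2485 entries with a value above 0 or without a readable value, and 3 of 287 precursors. An entry is 1 sequence under 1 precursor, so that one miRNA is spread over several forms (isomiRs), which vary in length or carry another base. The precursors were chosen by values of these data, the abundance of mir-99a and mir-100 and the authors' comparisons for mir-99b, and the levels and ratios are therefore given as descriptions.

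The cells were ventricular cardiomyocytes, freed with enzymes from perfused hearts of adult female guinea pigs of the Hartley strain. They were kept at room temperature with 10 µM doxorubicin (DOX), an anthracycline drug against cancer, or with its vehicle DMSO, for 1 h or 22 h. The labels name 4 groups (DMSO 1 h, DOX 1 h, DMSO 22 h and DOX 22 h) of 3 libraries each. They mention no genetic change, and do not say whether the 3 libraries of a group came from separate animals. The 3 tables set DOX against DMSO at 1 h, DOX against DMSO at 22 h, and DOX at 22 h against DOX at 1 h. Reads were aligned to human sequences, so each guinea pig read is listed under a human precursor, not always the one nearest to it in sequence.

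The members of this family share their seed, the bases near the 5′ end by which a miRNA pairs with its target mRNAs. They are best known for lowering MTOR, IGF1R and other parts of growth factor signalling. In the human genome each precursor lies in a cluster with a let-7 and a miR-125 precursor. A precursor hairpin gives a 5p and a 3p product, and for this family the 5p arm is the one usually kept.

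The sequences below are the most abundant 5p form of each precursor in the deposited names, shown to compare the members, under a longer mir-99a form that starts 2 bases further upstream. In the longer form the capitals mark bases 2 to 8, the seed of a miRNA that begins there, as mature miR-99a is known to do. In the other forms they mark the 6 seed bases that are left.
mir-99a, longer form: aACCCGTAgatccgatcttg
mir-99a: CCCGTAgatccgatcttgtg
mir-100: CCCGTAgatccgaacttgtg
mir-99b: CCCGTAgaaccgaccttgcg

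The 3 most abundant forms were all 20 bases long and began with the same 6 seed bases. Counted from 1 at the 5′ end of these forms and with the mir-99a base first, mir-100 differed from mir-99a by T14A alone. The mir-99b form differed from that of mir-99a by T9A, T14C and T19C. The start 2 bases inside the known 5′ end was shared by nearly all of the family's 5p signal. Whether other miRNAs of these data also start inside their known 5′ ends was not tested. The start is therefore not given as a trait of this family. Start 14, as the entry names number the precursor, held 99.9% of the mir-99a 5p signal in each table. All mir-100 5p entries began at 14 and all mir-99b 5p entries at 8. The longer mir-99a form, at start 12, held 0.0775% of the mir-99a 5p signal at 1 h, 0.0921% at 22 h and 0.0875% in the table of DOX 22 h and DOX 1 h. No entry of any precursor was longer than 21 bases.

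As the tables give 1 mean over both of their groups, a level has no SD, and the values below are mean normalized counts as the authors deposited them. Because each table has its own scale, levels were compared within a table. The sum over the mir-99a 5p entries was 102933 at 1 h, 71169 at 22 h and 92379 in the table of DOX 22 h and DOX 1 h. For mir-100 5p the sums were 58894, 43495 and 51981 in the same order. For mir-99b 5p they were 6543, 5226 and 5105. In each table mir-99a stood first, mir-100 second and mir-99b far below both. The level of mir-99a was 15.7, 13.6 and 18.1 times that of mir-99b in these 3 tables. The level of mir-100 was 9.0, 8.32 and 10.2 times that of mir-99b.

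Together the 3 precursors made up 2.87% of all mean counts at 1 h, 2.51% at 22 h and 2.49% in the table of DOX 22 h and DOX 1 h. With sequences listed under 2 precursors left out, the shares were 4.80%, 4.21% and 4.26%. Among the 346 precursor arms with a mean at 1 h, mir-99a 5p held place 15, mir-100 5p place 20 and mir-99b 5p place 60. The places at 22 h, among 319 arms, were 16, 20 and 58. Among the 427 arms of the other table they were 15, 21 and 69. The order of the members was thus the same in the 3 tables, while mir-99b supplied 3.89%, 4.36% and 3.42% of the family's signal. The lost decimal marks of the means at 1 h and 22 h were set by the other table, so the shared order is partly built in.

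**Figure D1:**
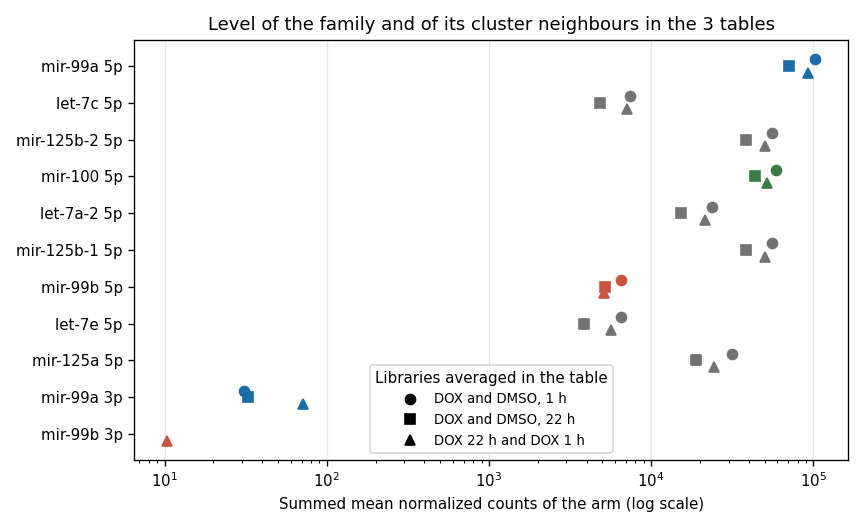
Summed mean normalized counts (log axis) of the 5p arms of mir-99a, mir-100 and mir-99b, of their cluster neighbours and of the 3p arms, with 1 point per deposited table. The points of mir-99a 5p lie between 71169 and 102933 and those of mir-99b 5p between 5105 and 6543.

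The 3p arms were nearly absent from the tables. The entries of mir-99a 3p summed to 30.7 at 1 h, 32.5 at 22 h and 71.3 in the table of DOX 22 h and DOX 1 h, which is at most 0.0771% of the signal of that precursor. The last table lists entries down to far lower means, and 7 mir-99a 3p entries stand in it against 1 in each of the others. Only that table held mir-99b 3p, with 2 entries that summed to 10.3. No table listed a 3p entry of mir-100. The most abundant 3p form of each precursor is given here to show that both begin alike.
mir-99a 3p: agctcgcttctatgggtctgt
mir-99b 3p: agctcgtgtctgtgggtccgt

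The cluster neighbours did not share 1 ratio to their family member. Next to mir-99a, let-7c 5p had a sum of 7368 at 1 h and mir-125b-2 5p one of 55640, both under that of mir-99a. Next to mir-100, mir-125b-1 5p reached 55687 at 1 h, close to mir-100 itself, and let-7a-2 5p 23756. Next to mir-99b, let-7e 5p had 6477 and mir-125a 5p 31443, so that the miR-125 member exceeded its miR-99 neighbour here alone. The entries of mir-125b-1 and mir-125b-2, and those of the let-7a precursors, share mature sequences, and their split between precursors is uncertain.

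The label of the cells was compared with marker miRNAs. All 7 cardiomyocyte precursors of the list (mir-1, mir-133a, mir-208 and mir-499a) were present in each table and held 33.5% to 37.1% of the mean counts. The smooth muscle markers mir-143 and mir-145 held 19.4% to 20.96%, and the endothelial marker mir-126 held 3.24% to 4.41%. Nearly all of the smooth muscle share was mir-143, with 18.97% to 20.64%, while mir-145 held 0.321% to 0.385%. Fibroblast markers (mir-199a and mir-214) held 0.197% to 0.266% and red cell markers 0.0201% to 0.0259%. The myeloid marker mir-223 was at or under 0.00232%, and the hepatocyte marker mir-122 was not listed. The members are made in many cell types, and the part of non-muscle cells in their levels was not tested. In such bulk RNA, fewer cells of a type and less RNA per cell cannot be told apart.

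The forms of each 5p arm differed in length. Forms of 20 bases held 57.3% of mir-99a 5p at 1 h, 59.1% at 22 h and 60.0% in the table of DOX 22 h and DOX 1 h. For mir-100 5p the shares were 56.3%, 55.8% and 57.9%. For mir-99b 5p they were 52.3%, 59.3% and 51.6%, so that the 22 h table stood apart from the others for mir-99b and for neither of the other members to that degree. The members differed more in their shorter and longer forms. Forms of 19 bases held 33.7% to 35.9% of mir-99a 5p, 24.3% to 25.7% of mir-100 5p and 14.8% to 18.9% of mir-99b 5p. Forms of 21 bases held 6.33% to 6.85% of mir-99a 5p, 17.8% to 18.8% of mir-100 5p and 22.2% to 25.6% of mir-99b 5p. The ranges of the 3 members over the tables did not overlap at either length, with mir-100 between the others at both. The tables that hold DOX 22 h share that library, so these ranges measure no spread between replicates. The 21-base shares also rest on unlike sets of forms. At the common start mir-99a was listed with an ending in A alone, and mir-100 and mir-99b with endings in A and in T. Of mir-100 5p, 0.97% to 1.24% was a 21-base mir-99a sequence that is listed under mir-100 as well. Forms of 18 bases held 3.14% to 4.07% of mir-99b 5p and were listed for no other member.

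**Figure D2:**
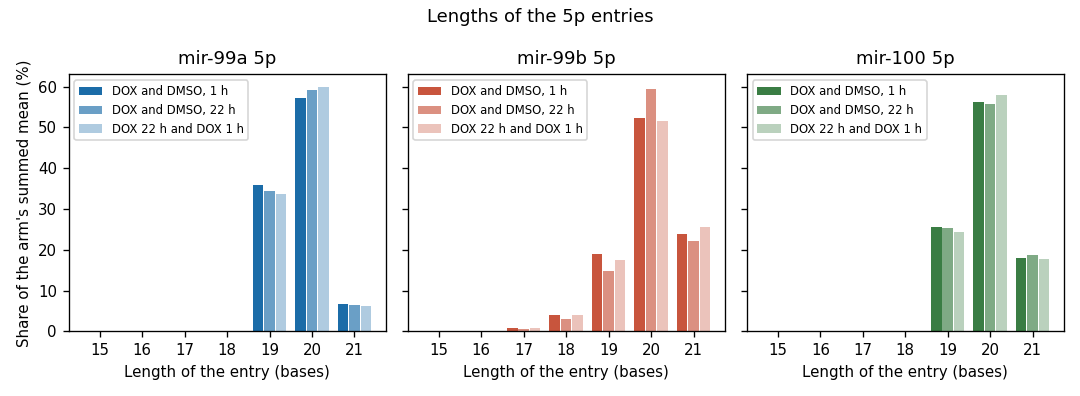
Share (%) of each length, in bases, in the summed mean of the 5p arm, with 1 panel per precursor and 1 bar per deposited table. Forms of 20 bases lead in every panel, the 19-base share falls from mir-99a to mir-99b, and the 20-base bar of mir-99b is highest, 59.3%, in the 22 h table.

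The 21-base forms ended in A or T. They are shown with the last base in capitals because they are the forms that can be compared between the members library by library.
mir-99a, ending in A: cccgtagatccgatcttgtgA
mir-100, ending in A: cccgtagatccgaacttgtgA
mir-100, ending in T: cccgtagatccgaacttgtgT
mir-99b, ending in A: cccgtagaaccgaccttgcgA
mir-99b, ending in T: cccgtagaaccgaccttgcgT

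The mir-99a sequence of this set also stood under mir-100, as a separate entry with its own, lower value. At 1 h it had a mean of 7046 under mir-99a and 733 under mir-100. At 22 h the means were 4688 and 506, and in the table of DOX 22 h and DOX 1 h they were 5840 and 505. The entry under mir-100 differs from the mir-100 sequence by A14T, with the mir-100 base first. The split of this sequence between the precursors is thus a matter of how the reads were assigned, and its mir-100 values are uncertain.

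For the tables that hold DOX 22 h, reads of single libraries could be recovered. In both, each mean was a whole-number combination of the reads of 2 libraries, and names of predicted miRNAs carried replicate 1, so each comparison there rests on 1 library per side. The library shared by both tables, that of DOX 22 h, joined them, and 1216 of the 1323 entries with a mean at 22 h had a single solution for the reads of DMSO 22 h, DOX 22 h and DOX 1 h. These entries held 440362, 474736 and 623625 reads of the 3 libraries. In the ratios below, reads were scaled to DOX 22 h by the size factors found in the means, DMSO 22 h by 1.12 and DOX 1 h by 0.778. The ratios compare libraries and not conditions, as there is no replicate, and their 95% intervals are exact binomial ones that cover counting error only. Of the 34 members, 12 had a single solution in the 3 libraries, 8 had one in the 2 DOX libraries alone, and 13 had several solutions. The one left, a mir-100 entry of 14 bases, is listed at 1 h without a readable mean.

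The most abundant mir-99b form had 3965 reads in DMSO 22 h, 2117 in DOX 22 h and 3240 in DOX 1 h. On the common scale these were 4459, 2117 and 2520, so that DMSO 22 h stood high and both DOX libraries lay close together. The log2 ratio of DOX 22 h over DMSO 22 h was −1.07, with an interval from −1.15 to −0.998. The log2 ratio of DOX 22 h over DOX 1 h was −0.25, with an interval from −0.33 to −0.17. The next mir-99b form, of 19 bases, had 775, 772 and 1038 reads in DMSO 22 h, DOX 22 h and DOX 1 h. Its log2 ratios were −0.17 (interval −0.32 to −0.03) against DMSO 22 h and −0.06 (interval −0.20 to 0.07) against DOX 1 h. This form, 1 base shorter than the first, showed no such excess in DMSO 22 h.

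The 21-base mir-99b form ending in T had 743 reads in DMSO 22 h, 727 in DOX 22 h and 1015 in DOX 1 h. That ending in A had 442, 399 and 499 reads in the same order. Their log2 ratios of DOX 22 h over DMSO 22 h were −0.20 and −0.32, and both intervals lay below 0. The 18-base form had 160, 168 and 245 reads, and the 17-base form 24, 32 and 53, with intervals that held 0 in both comparisons. The 5 forms beside the most abundant one therefore stayed within a log2 ratio of −0.32 to 0.24 against DMSO 22 h.

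**Figure D3:**
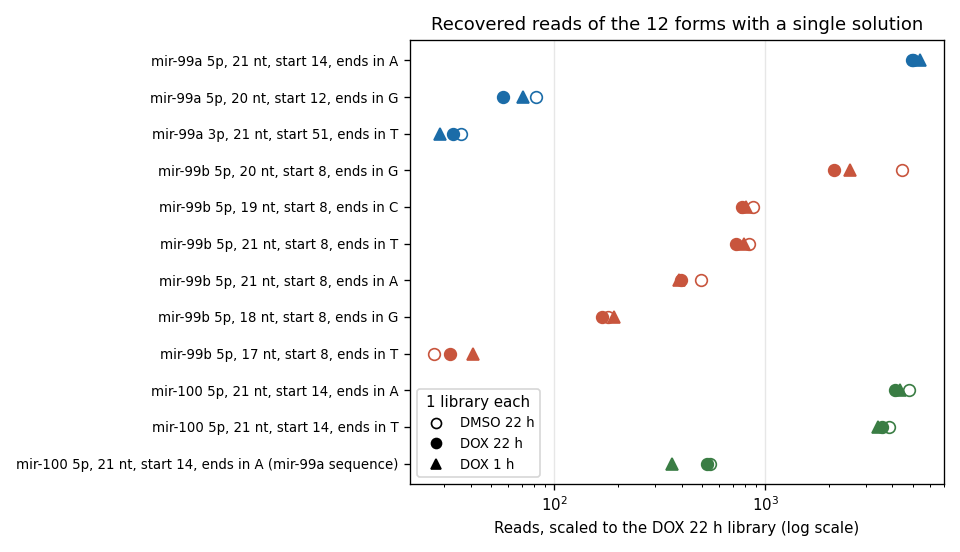
Reads of the 12 forms with a single solution, scaled to the DOX 22 h library (log axis), in 1 library each of DMSO 22 h (open circles), DOX 22 h (filled circles) and DOX 1 h (triangles). For the 20-base mir-99b form the DMSO 22 h point, at 4459, lies apart from those at 2117 and 2520, the widest gap of the mir-99b forms with over 100 reads.

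Within mir-99b the shares of the forms therefore changed between libraries. The 20-base form held 64.9% of the recovered mir-99b 5p reads in DMSO 22 h (3965 of 6109, exact binomial interval 63.7% to 66.1%). It held 50.2% in DOX 22 h (interval 48.7% to 51.7%) and 53.2% in DOX 1 h (interval 51.9% to 54.5%). At 1 h, over both groups, this form held 52.0% of the mir-99b 5p mean. The DMSO 22 h library thus stood highest, beyond counting error, the 2 DOX libraries differed from each other by much less, and the 1 h mean lay between those.

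The same measure was taken in other miRNAs. The ratio of the most abundant form was set against that of all other forms of its arm, in 40 arms with at least 500 reads on each side in every library and at least 95% of the arm's mean recovered. For mir-99b 5p the difference of the log2 ratios was −0.87 between DOX 22 h and DMSO 22 h. In the 39 other arms it ran from −1.08, in mir-339 3p, to 1.30, in mir-374a 5p, with a median of 0.07. Between DOX 22 h and DOX 1 h it was −0.17 for mir-99b and ran from −0.29 to 0.22 in the others. The differences of the arms thus spread more widely in the comparison with DMSO 22 h than in that with DOX 1 h, and mir-99b 5p was second from the low end of the former. The part of this library in the mir-99b ratio cannot be told apart from that of the condition.

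**Figure D4:**
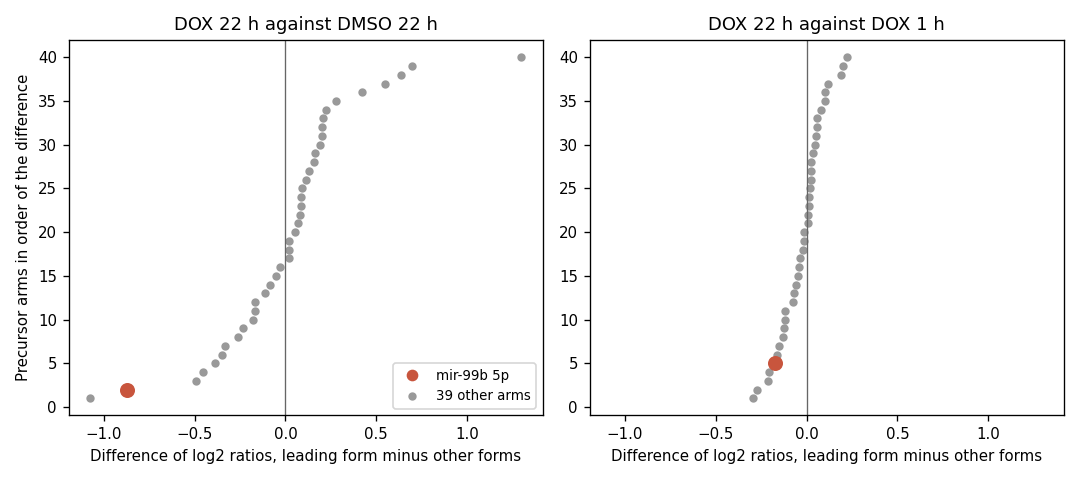
Difference between the log2 read ratio of the most abundant form and that of the other forms in 40 precursor arms, ordered by size, for DOX 22 h against DMSO 22 h (left) and DOX 22 h against DOX 1 h (right). The arm mir-99b 5p (large point) lies at −0.87 on the left and at −0.17 on the right, where the points of the other arms span −0.29 to 0.22.

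The 21-base mir-99a form, ending in A, had 4463 reads in DMSO 22 h, 4924 in DOX 22 h and 6912 in DOX 1 h. Scaled to one library these were 5019, 4924 and 5376, which differ little. Its log2 ratio was −0.03 (interval −0.09 to 0.03) against DMSO 22 h and −0.13 (interval −0.18 to −0.07) against DOX 1 h. The longer mir-99a form, which holds the whole seed, was rare, with 73, 57 and 91 reads in DMSO 22 h, DOX 22 h and DOX 1 h. Its log2 ratio against DMSO 22 h was −0.52, and the interval ran from −1.05 to −0.01. The 3p form of mir-99a had 32, 33 and 37 reads, and its intervals held 0 in both comparisons.

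The 21-base mir-100 form ending in A had 4241 reads in DMSO 22 h, 4133 in DOX 22 h and 5601 in DOX 1 h, and that ending in T had 3426, 3549 and 4392. Against DMSO 22 h their log2 ratios were −0.21 (interval −0.27 to −0.14) and −0.12 (interval −0.19 to −0.05). Against DOX 1 h they were −0.08 (interval −0.13 to −0.02) and 0.06 (interval −0.01 to 0.12). These 21-base mir-100 forms were a little lower in DOX 22 h than in DMSO 22 h, by far less than the most abundant mir-99b form. The sequence listed under both precursors had 484, 529 and 464 reads under mir-100. Of the 12 forms it was the one with an interval above 0 against DOX 1 h, with a log2 ratio of 0.55 (interval 0.37 to 0.73). Of all reads of this sequence, mir-100 was given 9.78% in DMSO 22 h, 9.70% in DOX 22 h and 6.29% in DOX 1 h.

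Of the 12 forms, 11 had fewer scaled reads in DOX 22 h than in DMSO 22 h and 1 had more, with a median log2 ratio of −0.15. In 7 of them the interval lay below 0, and 6 of the 12 were forms of mir-99b 5p. The count depends on the scaling, as with scaling by the sum of recovered reads mir-99a 5p was at 0.027 instead of −0.034. Over all 1216 entries with recovered reads the median was 0.0026, and 49.9% had a ratio below 0. Only the 20-base mir-99b form was at least 2-fold lower in DOX 22 h, where 4.85% of all these entries were, and none was at least 2-fold higher, where 6.09% were. Among the 225 entries with at least 1000 reads in the pair, 0.889% were 2-fold lower and none was 2-fold higher. These were this mir-99b form and 1 form of mir-374a, which was named after its values were seen. Between DOX 22 h and DOX 1 h none of the 12 forms was 2-fold lower or higher, where 1.89% and 5.84% of all these entries were. Of the 8 members with reads in the 2 DOX libraries alone, 4 differed by over 2-fold, 2 in each direction, with at most 7 reads in either library. Among them a 19-base mir-99b 3p form, with 5 reads in DOX 22 h and 0 in DOX 1 h, had an interval above 0. The shares above do not cover such rare entries, and a share over all entries of that kind was not computed. The count of 4 is therefore not read as a result about the members. Between DOX 22 h and DOX 1 h, 8 of the 12 forms had a ratio below 0 and 4 above it, with a median of −0.10 against 0.05 over all entries. Most of the 12 forms are abundant, and entries with at least 1000 reads in the pair had medians below 0 as well. These were −0.05 against DMSO 22 h, with 59.6% of the ratios below 0, and −0.05 against DOX 1 h, with 58.0% below 0.

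**Figure D5:**
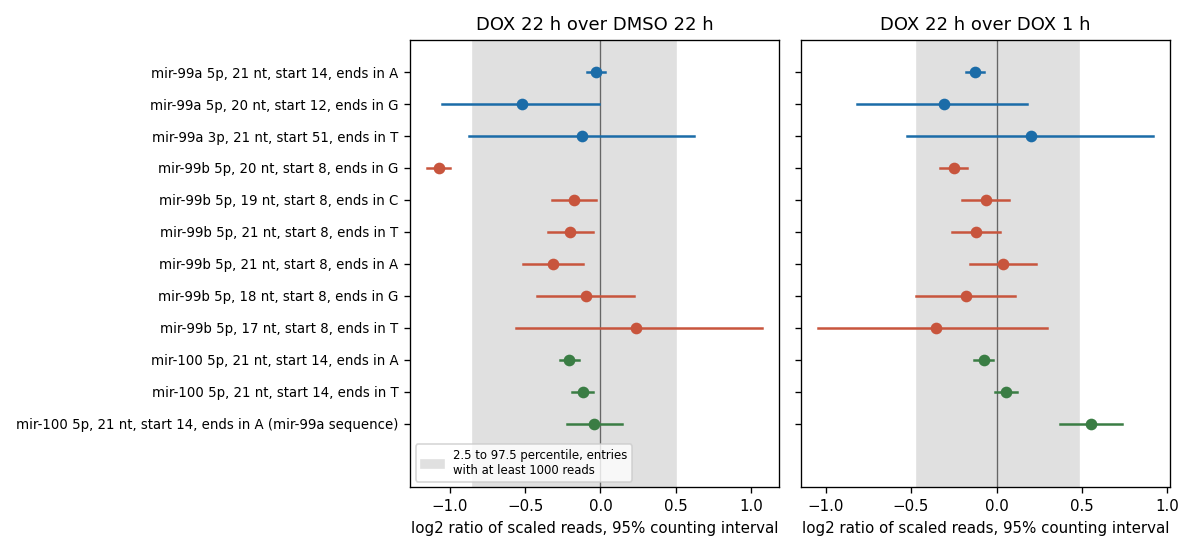
The log2 ratio of scaled reads of the 12 forms with a single solution, with exact binomial 95% intervals for counting error, for DOX 22 h over DMSO 22 h (left) and DOX 22 h over DOX 1 h (right). The grey band spans the middle 95% of the ratios of entries with at least 1000 reads in the pair, and the 20-base mir-99b form, at −1.07, lies outside it on the left.

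Set against the recovered forms of mir-99a and mir-100, mir-99b was lower in DOX 22 h. Summed over its 6 recovered 5p forms, mir-99b had 6109 reads in DMSO 22 h, 4215 in DOX 22 h and 6090 in DOX 1 h. The 5 recovered 5p forms of mir-99a and mir-100 together had 12687, 13192 and 17460. The difference of the log2 ratios, mir-99b minus the others, was −0.59 for DOX 22 h over DMSO 22 h (counting interval −0.66 to −0.53). For DOX 22 h over DOX 1 h it was −0.13 (counting interval −0.19 to −0.06), and against mir-99a alone it was −0.04, with an interval from −0.12 to 0.04 that held 0, while against mir-100 alone it was −0.18 (interval −0.25 to −0.11). The first of these rested on 1 form, as without the 20-base mir-99b form it was −0.09, and its interval, −0.18 to 0.01, held 0. Without that form the second was −0.04, with an interval from −0.13 to 0.05. At matched length and last base the members lay closer: for the 21-base forms ending in A the log2 ratio against DMSO 22 h was −0.03 in mir-99a, −0.21 in mir-100 and −0.32 in mir-99b, and for those ending in T it was −0.12 in mir-100 and −0.20 in mir-99b.

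These sums cover the members unequally. The recovered forms hold 99.4% of the mir-99b 5p mean in the table of DOX 22 h and DOX 1 h, but 17.8% of that of mir-100 5p and 6.40% of that of mir-99a 5p. The reads of the 4 most abundant forms of mir-99a and mir-100, of 19 and 20 bases, had several solutions, as adding 5754 reads of DOX 22 h and taking 5117 of DMSO 22 h and 7398 of DOX 1 h away leaves both means as they are. The 20-base mir-99a form had 16 solutions, of which 5 stayed within 2-fold in both comparisons. Against DMSO 22 h the log2 ratios of these 5 ran from −0.55 to 0.98. The 19-base mir-99a form and the 20-base mir-100 form had 9 each, of which 3 stayed within 2-fold. Their ratios against DMSO 22 h ran from −0.79 to 0.52 in the former and from −0.90 to 0.42 in the latter. It is therefore not known whether the 20-base forms of mir-99a and mir-100 were as low as that of mir-99b. The 19-base mir-100 form had 3 solutions, and 1 of them stayed within 2-fold, with 11104 reads in DMSO 22 h, 10950 in DOX 22 h and 14564 in DOX 1 h. The log2 ratios of that solution were −0.19 against DMSO 22 h and −0.05 against DOX 1 h.

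One relation holds for every solution, since the reads of DOX 22 h drop out of the difference between the tables. For the 20-base mir-99a form, scaled reads of DOX 1 h exceeded those of DMSO 22 h by 8607, a ratio of at least 1.097. For the 20-base mir-100 form the excess was 1610, a ratio of at least 1.03. For the 20-base mir-99b form DOX 1 h minus DMSO 22 h was instead −1939 scaled reads, which is the recovered 2520 against 4459. The 20-base forms of mir-99a and mir-100 therefore differed in direction from that of mir-99b between these 2 libraries. For mir-100 this direction was that of the 20-base form alone. In its other forms with a mean in both tables, DOX 1 h minus DMSO 22 h was −1159, −413, −436 and −183 scaled reads. The last of these values is that of the sequence also listed under mir-99a. These other mir-100 forms went in the same direction as the 20-base mir-99b form.

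Some mir-99b entries carried bases of the other members. The form under which the study lists miR-99b-5p differs from the most abundant mir-99b form by C14T and C19T, with the mir-99b base first, and from that of mir-99a by T9A alone. The capitals below mark the bases that differ from the most abundant mir-99b form.
listed by the study as miR-99b-5p: cccgtagaaccgaTcttgTg
1 base shorter: cccgtagaaccgaTcttgT
nearest to mir-100: cccgtagaaccgaActtgTg

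The form listed by the study had 7 reads in DOX 1 h and 1 in DOX 22 h. That 1 base shorter had 4 and 3, and the form nearest to mir-100 had 5 and 1. Their intervals reached from below to above 0, and no direction can be read from so few reads. At 1 h the means of the first 2 were 19.6 and 16.6. Their decimal mark was lost and was set so that no mean lay under 10, and by the power of 10 nearest to the other table both would be 10 times lower. The form nearest to mir-100 is not listed at 1 h. None of the 3 is among the 6 mir-99b entries at 22 h, although the study lists the first of them at 22 h as well as at 1 h. Of the 23 entries of the family at the common starts, 5 had a base that differed from the most abundant form of their own precursor, these 3 among them.

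At 1 h no read of a single library could be recovered, and DOX and DMSO cannot be told apart in the means. The ratio of the mean at 1 h to that in the table of DOX 22 h and DOX 1 h had a median of 1.103 over the 249 entries with a mean of at least 1000 in the latter. For the 3 mir-99a 5p entries with a mean of at least 100 in that table it was 1.06 to 1.21. For the 5 of mir-100 it was 1.102 to 1.45, and for the 5 of mir-99b 1.13 to 1.36. The member entries lay within the range from 0.803 to 1.49 that held the middle 95% of those entries. The lost decimal mark of each 1 h mean was set by the same entry's mean in the table of DOX 22 h and DOX 1 h. Agreement between these tables is therefore partly built in, and a large shift would appear as a smaller one. Whether a member shifted strongly at 1 h cannot be decided from these ratios.

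The precursor arms with the ratios most like those of the members were sought among 89 arms outside the family with at least 1000 recovered reads in each of the 3 libraries, by the Euclidean distance over the 2 log2 ratios. Nearest to mir-99b 5p were mir-27b 3p, at a distance of 0.09, mir-181c 5p, at 0.21, and mir-208b 3p, at 0.22. In mir-27b 3p the recovered reads cover 4.82% of the arm. Nearest to mir-99a 5p were mir-23b 3p, mir-139 5p and mir-15a 5p, at 0.03, 0.03 and 0.07. Nearest to mir-100 5p were mir-30c-2 5p, mir-181a-1 5p and mir-133a-1 5p, at 0.02, 0.02 and 0.03. The recovered reads cover 28.7% of mir-23b 3p, 36.5% of mir-30c-2 5p and 27.7% of mir-181a-1 5p. They cover 6.40% of mir-99a 5p and 17.8% of mir-100 5p themselves, against 99.4% of mir-99b 5p. In these recovered reads the nearest arms of mir-99b were farther off than those of the other members.

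Among the cluster neighbours with most of the arm recovered, let-7e 5p, next to mir-99b, had 3566 reads in DMSO 22 h, 4156 in DOX 22 h and 7428 in DOX 1 h. Its log2 ratio was 0.05 (interval −0.01 to 0.12) against DMSO 22 h and −0.48 (interval −0.53 to −0.42) against DOX 1 h. For let-7c 5p, next to mir-99a, it was 0.19 (interval 0.13 to 0.24) and −0.38 (interval −0.42 to −0.33). The ratios of let-7e thus did not follow those of mir-99b in these libraries. For the other neighbours the recovered 5p reads cover 33.1% of the arm or less. Next to mir-100, the recovered mir-125b-1 5p forms, 2.71% of the arm, had a log2 ratio of −0.63 (interval −0.74 to −0.51) against DMSO 22 h and −0.38 (interval −0.50 to −0.27) against DOX 1 h. Next to mir-99a, those of mir-125b-2 5p, 2.54% of the arm, were at −0.72 (interval −0.84 to −0.60) and −0.46 (interval −0.58 to −0.35). Against DMSO 22 h both were thus about as low as mir-99b 5p, at −0.70. The recovered let-7a-2 5p forms, 33.1% of the arm, were at 0.01 (interval −0.04 to 0.07) and −0.29 (interval −0.34 to −0.24), and mir-125a 5p had 1 recovered form with 20, 16 and 21 reads in DMSO 22 h, DOX 22 h and DOX 1 h.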

How the data were processed

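Small RNA of 12 guinea pig cardiomyocyte samples (4 groups of 3) was sequenced on an Illumina instrument after TruSeq small RNA preparation. The BaseSpace Small RNA application served the authors for alignment to human sequences (hg19 per the submitters' processing notes), with quality control by FastQC and MultiQC, and compared groups with DESeq2. The aligner and the versions are not given in the sources used here. The deposited tables hold, for each entry, 1 signal, the mean of reads divided by size factors over both groups, and columns of the authors' comparison (group values, log2 fold change, standard error, p and adjusted p), which were not used. In 2 tables the decimal mark of the mean was lost. It was set back to the power of 10 nearest to the entry's mean in the table of DOX 22 h and DOX 1 h. A floor of 10 was used. At 22 h the lowest mean without the floor was 10.02, and the floor raised 0 entries. At 1 h the same floor was assumed, and it raised 15 entries. A mean was restored for 1506 of 1610 entries at 1 h and 1323 of 1335 at 22 h, while 2369 of 4979 entries of the other table had a mean above 0.

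For 2 libraries, each mean is a whole-number combination of their reads. The weights, found by search within 1e-05 of a step, were 822 for DMSO 22 h and 731 for DOX 22 h, and 9 for DOX 22 h and 7 for DOX 1 h. Of 1052 entries solved at 22 h alone, 1052 satisfied the other table with this choice of the shared library, against 12.5% or less with the others. Reads with a single joint solution were used, and the recovery was tested on simulated data. The total reads of each library are not given in the sources used here. As each side is 1 library, no test was run. Log2 ratios had 0.5 reads added, and the intervals are exact Clopper-Pearson ones at 95%, or for differences of log2 ratios normal ones from the counts. PCR copies were not removed, so they cover counting error only.

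Arms were split where starts lay more than 15 bases apart. The members, lists and tests were chosen with earlier results of these data known. Named were the most abundant form of each arm, other starts with a share over 1% (only start 52 of mir-99a 3p, 6.18% in 1 table, from 1 entry; the longer mir-99a form was named after its values were seen), the form the study lists as miR-99b-5p with the 2 nearest to it, the cluster neighbours and the 3 nearest arms. The comparison of the most abundant form with the rest of its arm was chosen after seeing the data. The alternatives were a lowest mean of 10, the most abundant form alone, shared sequences left out, another scaling, 1 read added, single members and the common start only. Computations ran in Python 3.11.15, with scipy 1.17.1 for intervals, numpy 2.4.6, pandas 2.3.3 and matplotlib 3.10.9.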

Additional observations from a re-analysis of the deposited data

How the results depend on the processing

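Of 57 recomputed values, 40 stayed within their counting interval or, for shares, within 10% of the value, and 17 moved further. With sequences of 2 precursors left out, the family's share of all means became 4.80% at 1 h, 4.21% at 22 h and 4.26% in the table of DOX 22 h and DOX 1 h. By the most abundant form alone, mir-99b held 2.99% of the family in the last table. Scaled by the sum of recovered reads, the log2 ratio of DOX 22 h over DMSO 22 h was 0.027 for mir-99a (−0.034 as reported, both near 0), −0.64 for mir-99b and −0.098 for mir-100. With the most abundant recovered form alone it was −1.07 for mir-99b and −0.21 for mir-100, and against DOX 1 h −0.25 for mir-99b and −0.076 for mir-100 (0.014 as reported). Without the 20-base mir-99b form, an alternative chosen after seeing the data, mir-99b was at −0.20 against DMSO 22 h and −0.079 against DOX 1 h, and its difference from mir-99a and mir-100 was −0.088 and −0.037. Against mir-99a alone the differences were −0.67 and −0.039, the latter with an interval from −0.12 to 0.04 that held 0. Leaving out the sequence listed under both mir-99a and mir-100, also chosen after seeing the data, gave −0.54 and −0.15. The comparison by the most abundant 5p form of each member was not run, as the reads of those of mir-99a and mir-100 have several solutions. No paired analysis was possible because the tables hold no value per library and the reads recovered come from 1 library a group, and for the same reason no replicate was left out in turn. Depth limits the rare mir-99b forms and the 3p forms.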
